A study of Mus musculus with 22 samples.

Results

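The genes described here are 10 genes whose transcripts mark the mouse embryo at the 2-cell stage. They are the 6 copies of the zinc finger gene Zscan4 (Zscan4a, Zscan4b, Zscan4c, Zscan4d, Zscan4e and Zscan4f), 3 genes of the ubiquitin-specific protease family Usp17l (Usp17la, Usp17lb and Usp17lc), and the zinc finger gene Zfp352. They were chosen by name, with earlier results of these data known, and all 10 were found among the 18487 genes of the table. Genes were tested where 2 or more libraries held a value of 10 or higher, which all 10 and 17275 genes in all did. Some passed through few libraries, since Zscan4b was above 0 in 5 of 22 libraries and Zfp352 in 9.

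Messenger RNA was sequenced from the mouse embryonic stem cell (ESC) line E14 after treatment with 10 compounds that act on chromatin, with 2 libraries for each compound. A further 2 libraries were labelled NC. NC was read as the label without a compound and taken as the reference of every comparison. All 10 comparisons thus share the same 2 NC libraries. Bromosporine binds bromodomains, which read acetylated lysines on histones. Valproate blocks the removal of acetyl groups from histones by deacetylases, and CPTH2 and Garcinol block their addition by acetyltransferases. Chaetocin is an inhibitor of lysine methylation of histones, UNC0379 of the methyltransferase SETD8, and MS023 of type I arginine methylation. DZNep blocks the breakdown of S-adenosylhomocysteine and with it many methyltransferases, and IOX1 inhibits 2-oxoglutarate-dependent oxygenases, among them histone demethylases. OICR is given as the labels write it, and they do not explain it or NC. The labels gave no dose, no exposure time and no statement that the 2 libraries of a group came from separate cultures, so p-values measure only the spread between these libraries. All groups share 1 cell line, which limits them as a model.

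In the mouse embryo the genome is first widely transcribed at the 2-cell stage, and Zscan4, Usp17l and Zfp352 are among the genes transcribed at that time. In cultures of ESCs a small share of cells passes through a state with a similar set of transcripts, in which the transcription factor DUX activates these genes together with the endogenous retrovirus MERVL. ZSCAN4 proteins are known for their part in telomere lengthening and genome stability in ESCs, USP17L proteins remove ubiquitin from other proteins, and ZFP352 is a zinc finger protein. A bulk library holds the RNA of all cells, so that fewer cells in such a state and less RNA in each of them cannot be told apart.

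The Zscan4 copies lie within 608.077 kb of chromosome 7 in the mm10 build, in which GENCODE places Zscan4a at the lowest and Zscan4f at the highest position, from 10794242 to 11402318. Zscan4c and Zscan4f are on the plus strand and the other 4 on the minus strand, and GENCODE lists Zscan4a as an unprocessed pseudogene and the other 5 as protein-coding. The Usp17l genes lie far along the same chromosome, Usp17lc at 103415072 to 103419880, Usp17lb at 104840257 to 104842603 and Usp17la at 104857009 to 104862667. Zfp352 is on chromosome 4, at 90218820 to 90225702.

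The copies resemble each other in sequence, which bears on how reads can be told apart. RefSeq (GRCm38.p6) gave a promoter for 8 of the 10 genes, from 250 bases before the start to 50 after it, and the 4 Zscan4 promoters among them (Zscan4b, Zscan4c, Zscan4d and Zscan4f) were 95.3 to 99.3% identical in pairwise alignments. The 3 Usp17l promoters were 91.7 to 95.3% identical. The letters TATAAA, the core of the TATA box, stood in the promoters of these 4 Zscan4 copies and of Usp17lb and Usp17lc, and not in those of Usp17la and Zfp352, while 13.6% of all 32817 RefSeq promoters of the same length hold them on either strand. The 6 promoters with TATAAA are shown, as the 120 bases before the RefSeq start, with these letters in capitals, because the Zscan4 copies share nearly the same bases around them.
Zscan4b, chr7:10905051-10905170, - strand: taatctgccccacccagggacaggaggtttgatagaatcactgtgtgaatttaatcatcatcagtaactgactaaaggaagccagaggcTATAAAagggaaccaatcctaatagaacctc
Zscan4c, chr7:11005625-11005744, + strand: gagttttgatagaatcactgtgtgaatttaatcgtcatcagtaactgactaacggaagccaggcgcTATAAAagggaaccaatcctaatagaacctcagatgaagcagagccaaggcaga
Zscan4d, chr7:11166149-11166268, - strand: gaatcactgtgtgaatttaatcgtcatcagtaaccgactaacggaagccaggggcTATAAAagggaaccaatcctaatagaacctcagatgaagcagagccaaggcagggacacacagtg
Zscan4f, chr7:11397795-11397914, + strand: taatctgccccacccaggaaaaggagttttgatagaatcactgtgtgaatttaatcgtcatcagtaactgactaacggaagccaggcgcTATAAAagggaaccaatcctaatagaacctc
Usp17lb, chr7:104842584-104842703, - strand: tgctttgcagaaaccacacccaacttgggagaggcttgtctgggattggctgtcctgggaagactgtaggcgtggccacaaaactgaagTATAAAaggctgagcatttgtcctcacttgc
Usp17lc, chr7:103416576-103416695, + strand: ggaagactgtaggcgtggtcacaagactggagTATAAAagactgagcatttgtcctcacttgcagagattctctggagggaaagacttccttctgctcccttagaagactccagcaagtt
In the 4 Zscan4 windows the capitals were followed by the same letters, as far as all 4 are shown. Their distance to the annotated start differed, from 31 bases in Zscan4b and Zscan4f to 65 bases in Zscan4d. The 8 promoters held 1 to 4 CG dinucleotides each, against a median of 7 over all promoters, and 38.1% of all promoters held no more than 4.

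The transcripts share long stretches as well. Of the 31-base stretches of its longest transcript, Zscan4f shared 97.6% with transcripts of other genes, Zscan4e 95.3%, Zscan4b 95.1%, Zscan4c 91.5%, Zscan4a 76.7% and Zscan4d 65.0%. For Usp17lc the share was 60.7%, for Usp17la 38.9%, for Usp17lb 31.6% and for Zfp352 21.5%. Reads from shared stretches are divided between the copies by estimation, so that a value of a single Zscan4 copy is uncertain. This holds most for Zscan4f, with 43 stretches of its own, and less for the sum over the copies. The sum leaves out the further loci Zscan4-ps1, Zscan4-ps2 and Zscan4-ps3, which shared 63.8%, 93.2% and 81.1% of their stretches with other genes. The sum is thus open to the same division of reads. In 9 of the 22 libraries at least 2 Zscan4 copies had the same value above 0. For this reason each set was also described by its sum.

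Values are normalised read counts, which the authors had brought to the same distribution in every library, so that the median gene had 409 and the largest 221616 in all libraries. Depth per library is not known, and a value of 0 can stem from the counting or from the normalization. Genes at 0 numbered 1655 and 1707 in the Bromosporine libraries, more than in any other library, and 1065 and 1110 with Valproate, fewer than in any other library. The part of these numbers in the values of the 10 genes was not tested. The pluripotency genes of the cell line were present, since no group had 1 of the 12 markers at 0 in both of its libraries, and Pou5f1, which encodes the transcription factor OCT4, lay between 25663 and 39262.

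In NC, the 6 Zscan4 copies summed to 272 and 230 (251 ± 29.7, SD, n = 2), and Usp17la, Usp17lb, Usp17lc and Zfp352 to 94 and 74 (84.0 ± 14.1, SD, n = 2). These are low values, below that of the median gene. Within the Zscan4 sum, Zscan4c had 64 and 66, Zscan4f 65 and 43, Zscan4e 47 in both, Zscan4d 40 and 47, and Zscan4a 39 and 27, while Zscan4b had 17 and 0. In the second sum, Usp17la made up most, with 59 and 48, before Usp17lb with 14 and 16, Usp17lc with 12 and 10, and Zfp352 with 9 and 0. The heat map of the 10 genes gives every value.

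**Figure D1:**
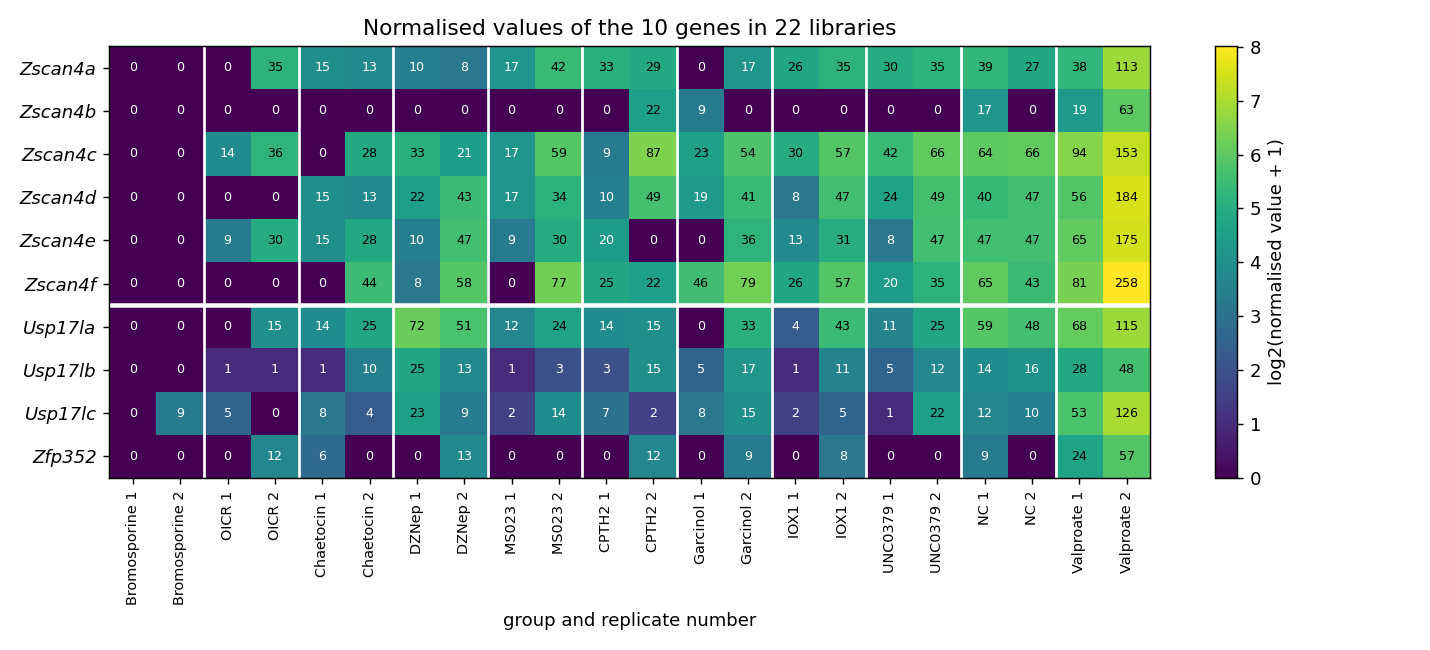
Normalised values of the 10 genes (rows) in the 22 libraries (columns, group and replicate number, ordered by the mean Zscan4 sum), with the value printed in each cell and the colour giving log2(value + 1). Both Bromosporine libraries are at 0 for all genes except Usp17lc, which had 9 in replicate 2, and Valproate replicate 2 is the highest library for each of the 10 genes.

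Against NC, 5 of the 100 pairs of gene and compound were called lower and 0 higher, in limma with p-values adjusted by Benjamini-Hochberg (threshold 0.05) and a fold change above 2. The calls were Zscan4c, Zscan4d, Usp17la and Usp17lb with Bromosporine and Zscan4d with OICR. The 8 other compounds had no call, and 4 of their 80 pairs had an unadjusted p under 0.05 in limma, against a lowest adjusted p of 0.221. Of all 17275 tested genes, 163 with CPTH2 to 6110 with DZNep had an unadjusted p under 0.05 among these compounds.

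With Bromosporine, nearly all of these genes were listed at 0. The Zscan4 sum was 0 in both libraries, with all 6 copies listed at 0 in each. The second sum was 0 in replicate 1 and 9 in replicate 2, all of it Usp17lc. Thus 9 of the 10 genes were at 0 in both libraries, and of the 8 genes with an NC mean of at least 10, all but Usp17lc. Among the 3607 tested genes with an NC mean between 10 and 100, 86 (2.38%) were at 0 in both Bromosporine libraries. The 8 genes with an NC mean of at least 10 each lay below both NC libraries in both Bromosporine libraries, which 23.0% of all tested genes did.

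Calls with Bromosporine were made for 4 of the 10 genes, against 2.77% of all tested genes called lower with this compound. Zscan4d was called with an adjusted p of 0.00279 and Zscan4c with 0.0149, and Usp17la and Usp17lb with 0.0375 each (limma, Benjamini-Hochberg). No fold change is given, since the group is listed at 0. Zscan4a, Zscan4e and Zscan4f were also at 0 in both libraries and missed the threshold, with adjusted p-values of 0.0504, 0.0622 and 0.0825. For Zscan4b, Usp17lc and Zfp352 the adjusted p was 0.54, 0.492 and 0.713, and Zscan4b and Zfp352 were already at 0 in NC replicate 2. Leaving out either Bromosporine library or either NC library left Zscan4d as the 1 call with Bromosporine.

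With OICR, the Zscan4 sum was 23 and 101 and the second sum 6 and 28, so that both libraries lay below both NC libraries for each. Relative to NC, the log2(sum + 1) differed by -2.34 for Zscan4 and by -2.57 for the second sum. Zscan4d was listed at 0 in both OICR libraries, against 40 and 47 in NC, and was called with an adjusted p of 0.0115 (limma, Benjamini-Hochberg). This was 1 of 10 genes, against 0.26% of all tested genes called lower with OICR. The call was lost without either NC library and without either OICR library. Zscan4f was at 0 in both libraries as well (adjusted p = 0.209), while Zscan4c had 14 and 36 and Zscan4e 9 and 30. Usp17lb had 1 in both libraries, against 14 and 16 in NC (adjusted p = 0.258). The copies were thus not at 0 together as with Bromosporine, and 7 of the 10 genes lay below both NC libraries in both OICR libraries, against 18.7% of all tested genes.

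With Valproate, both sums were the highest of all groups. The Zscan4 sum was 353 and 946, or 649.5 ± 419 (SD, n = 2), and the second sum 173 and 346, or 259.5 ± 122 (SD, n = 2). Both libraries lay above both NC libraries in each sum, and replicate 2 had the highest value of all 22 libraries for each of the 10 genes. The log2(sum + 1) was higher than in NC by 1.21 for Zscan4 and by 1.54 for the second sum. The size rested on the library. Replicate 1 had 1.3 times the Zscan4 sum of NC replicate 1, and replicate 2 had 4.11 times that of NC replicate 2, and for the second sum these ratios were 1.84 and 4.68.

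None of the 10 genes was called with Valproate, with which 2.73% of all tested genes were called higher and 5.28% in either direction, and none had an unadjusted p under 0.05 in limma. Usp17lc had 53 and 126 against 12 and 10 in NC, a log2 difference of 2.79 ± 1.33 (SE, adjusted p = 0.221, limma). Zfp352 had 24 and 57 against 9 and 0 (3.59 ± 1.87, adjusted p = 0.262), and Zscan4b 19 and 63 against 17 and 0 (3.08 ± 1.57, adjusted p = 0.255). For Zscan4d, 56 and 184 stood against 40 and 47 (1.21 ± 0.86, adjusted p = 0.417). In both Valproate libraries 9 of the 10 genes lay above both NC libraries, and 23.0% of all tested genes did so. Zscan4a was the exception, with 38 and 113 against 39 and 27.

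With DZNep the sums parted. The Zscan4 sum was 83 and 177, below both NC libraries, and the second sum was 120 and 86, which overlapped with NC. The Zscan4 sum was 0.692 and 2.06 times the second sum in the 2 DZNep libraries, against 2.89 and 3.11 in NC. Usp17la had 72 and 51, Usp17lb 25 and 13 and Usp17lc 23 and 9, each with 1 library above both NC libraries. Zscan4a had 10 and 8 and Zscan4c 33 and 21, each below both NC libraries, and Zscan4b was at 0. Thus 2 of the 10 genes lay below both NC libraries in both DZNep libraries, against 32.4% of all tested genes. None of the 10 genes was called, with a lowest adjusted p of 0.362 in limma and 0 at an unadjusted p under 0.05, while DZNep called 11.4% of all tested genes. In the other libraries with both sums above 0 the ratio ran from 1.55 to 14.7, so that DZNep replicate 1 lay below all of them and replicate 2 did not.

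The 6 remaining compounds had lower sums than NC on average, with values that depended on the replicate number. Chaetocin had a Zscan4 sum of 45 and 126, CPTH2 97 and 209, Garcinol 97 and 227, and IOX1 103 and 227, all below both NC libraries. MS023 had 60 and 242 and UNC0379 124 and 232, which overlapped with NC. Relative to NC, the log2(sum + 1) differed by -1.72 with Chaetocin, -1.04 with MS023, -0.81 with CPTH2, -0.75 with Garcinol, -0.71 with IOX1 and -0.56 with UNC0379.

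The second sum was 29 and 39 with Chaetocin, 24 and 44 with CPTH2, 7 and 67 with IOX1, 15 and 41 with MS023 and 17 and 59 with UNC0379, each below both NC libraries. With Garcinol it was 13 and 74, and replicate 2 equalled the lower NC library. Its log2 difference from NC ran from -1.28 with Chaetocin to -1.86 with IOX1. None of the 10 genes was called with any of these 6 compounds. The share of all tested genes called was 0.0174% with Chaetocin, 0.00579% with CPTH2, 0.00579% with Garcinol, 0.116% with IOX1, 0.973% with MS023 and 0.0% with UNC0379, for which limma gave 1051 of 17275 genes an unadjusted p under 0.05. Over the 10 genes, the pairs with an unadjusted p under 0.05 were Zscan4c with Chaetocin, Zscan4a and Usp17la with Garcinol and Usp17lb with MS023. Of all 17275 tested genes, 815 had an unadjusted p under 0.05 with Chaetocin, 625 with Garcinol and 2584 with MS023.

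Replicate 2 had the higher Zscan4 sum in 9 of the 11 groups, NC being the opposite and Bromosporine a tie at 0. Leaving out Bromosporine and Valproate, the 8 other compounds had Zscan4 sums of 23 to 124 in replicate 1, all below the 272 of NC replicate 1. In replicate 2 they had 101 to 242, and only MS023 (242) and UNC0379 (232) were above the 230 of NC replicate 2. The second sum was also higher in replicate 2 in 9 groups. The labels do not say what a replicate number stands for, and its part in these differences from NC was not tested. Ordered by the mean Zscan4 sum, the groups ran from Bromosporine over OICR, Chaetocin, DZNep, MS023, CPTH2, Garcinol, IOX1, UNC0379 and NC to Valproate, and from OICR to NC the 2 libraries of each group overlapped with those of the next group in the order. The plot of both sums by group shows the gap between the replicate numbers.

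**Figure D2:**
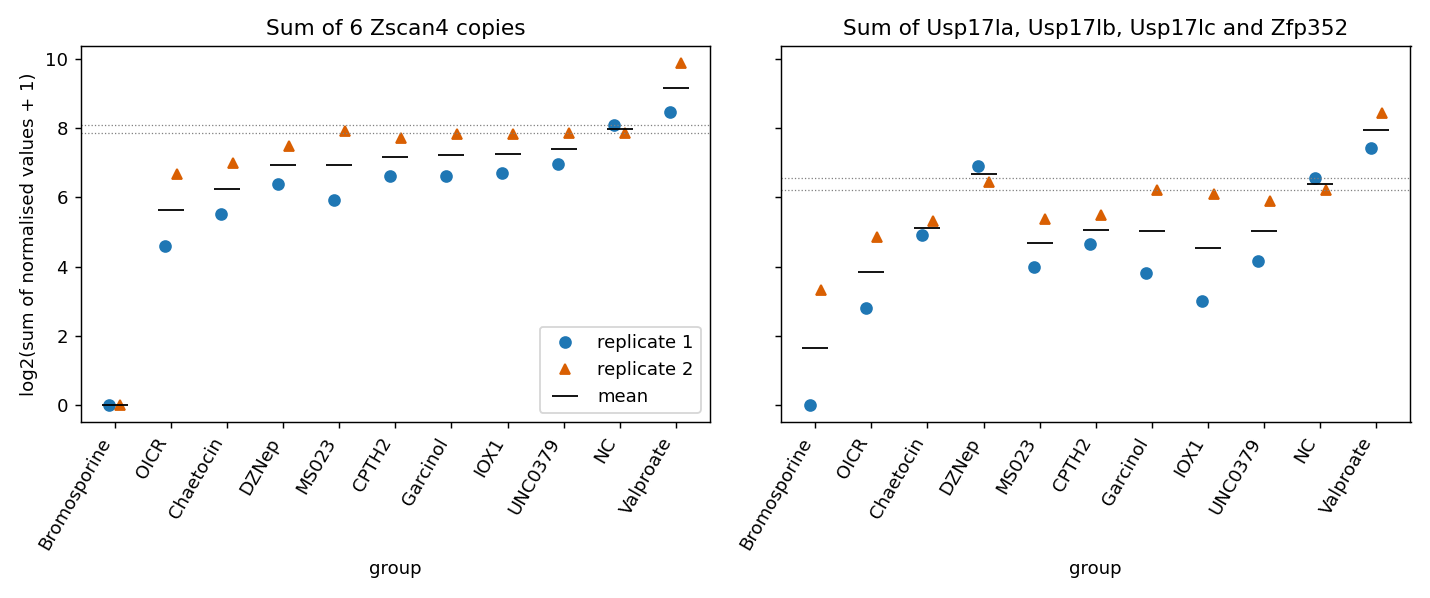
Sum of the 6 Zscan4 copies (left) and of Usp17la, Usp17lb, Usp17lc and Zfp352 (right) as log2(sum + 1) in the 11 groups, with circles for replicate 1, triangles for replicate 2, bars for their mean and dotted lines at the 2 NC libraries. Bromosporine is lowest and Valproate highest in both panels, and replicate 2 lies above replicate 1 in 9 of the 11 groups for each sum.

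Libraries with a high Zscan4 sum tended to have a high second sum. Over 22 libraries, the correlation of log2(sum + 1) was r = 0.809 (Spearman's rho 0.77), and within replicate number 1 and number 2 it was 0.835 and 0.846 (rho 0.579 and 0.61, 11 libraries each). Without the 2 libraries farthest from the median Zscan4 sum, both Bromosporine, r was 0.795 and rho 0.709. Without Bromosporine and Valproate, 18 libraries gave r = 0.679 and rho 0.601, and the 9 libraries of each number gave r = 0.51 and 0.64 (rho 0.226 and 0.282). The points share a normalization, and libraries of 1 group are not independent, so these values are a description. Between single genes, r had a median of 0.551 over the 15 pairs of Zscan4 copies, 0.536 over the 6 pairs of the other 4 genes and 0.548 over the 24 pairs between the sets. The median over pairs of Zscan4 copies was thus close to that over pairs across the sets.

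**Figure D3:**
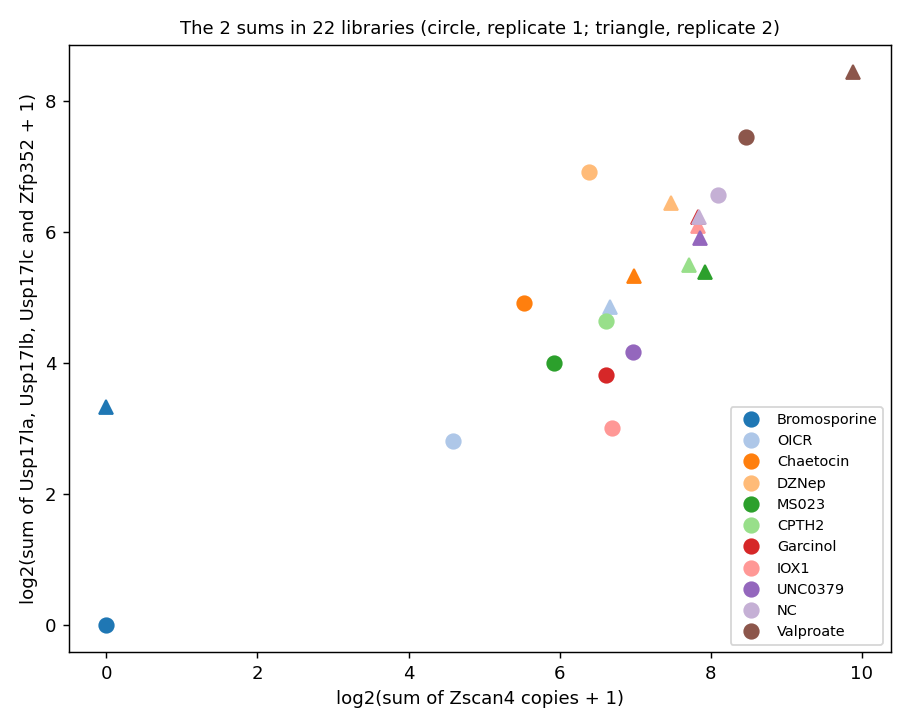
Sum of the 6 Zscan4 copies (x axis) against the sum of Usp17la, Usp17lb, Usp17lc and Zfp352 (y axis), both as log2(sum + 1), in the 22 libraries (circles, replicate 1; triangles, replicate 2). Bromosporine lies at the lower left and Valproate at the upper right, the DZNep libraries lie above the other libraries with like Zscan4 sums, and r over all libraries is 0.809.

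Genes between and beside the Zscan4 copies were read as well. Within 500 kb of the copies the table held 9 other genes besides 3 further Zscan4 loci, and 7 of the 9 were tested. None was called with Bromosporine, OICR or Valproate in limma, and 1 was called lower with DZNep. Zik1, a zinc finger gene beyond the cluster, had 285 and 331 with Bromosporine against 360 and 389 in NC. The pseudogene Gm7789, next to Zscan4c, had 271 and 309 against 521 and 533, and the pseudogene Gm6909 0 and 24 against 55 and 68. The pseudogene Gm45551 was higher, with 59 and 78 against 43 and 54. With Valproate, Gm7789 had 200 and 246 and Gm6909 4 and 4. The median log2 difference of the 7 tested neighbours from NC was below 0 with all 10 compounds, from -0.44 with CPTH2 to -2.45 with DZNep. It was -0.86 with Bromosporine and -1.54 with Valproate, against 0.01 and -0.02 over all tested genes. The loci Zscan4-ps1, Zscan4-ps2 and Zscan4-ps3 were at 0 in both Bromosporine libraries like the 6 copies, whose sequence they share, and were not called (adjusted p = 0.674, 0.138 and 0.06, limma). In the same order, these loci had 5 and 11, 46 and 162, and 17 and 70 with Valproate. In NC they had 20 and 0, 58 and 54, and 36 and 33. The plot of the cluster places these values along the chromosome.

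**Figure D4:**
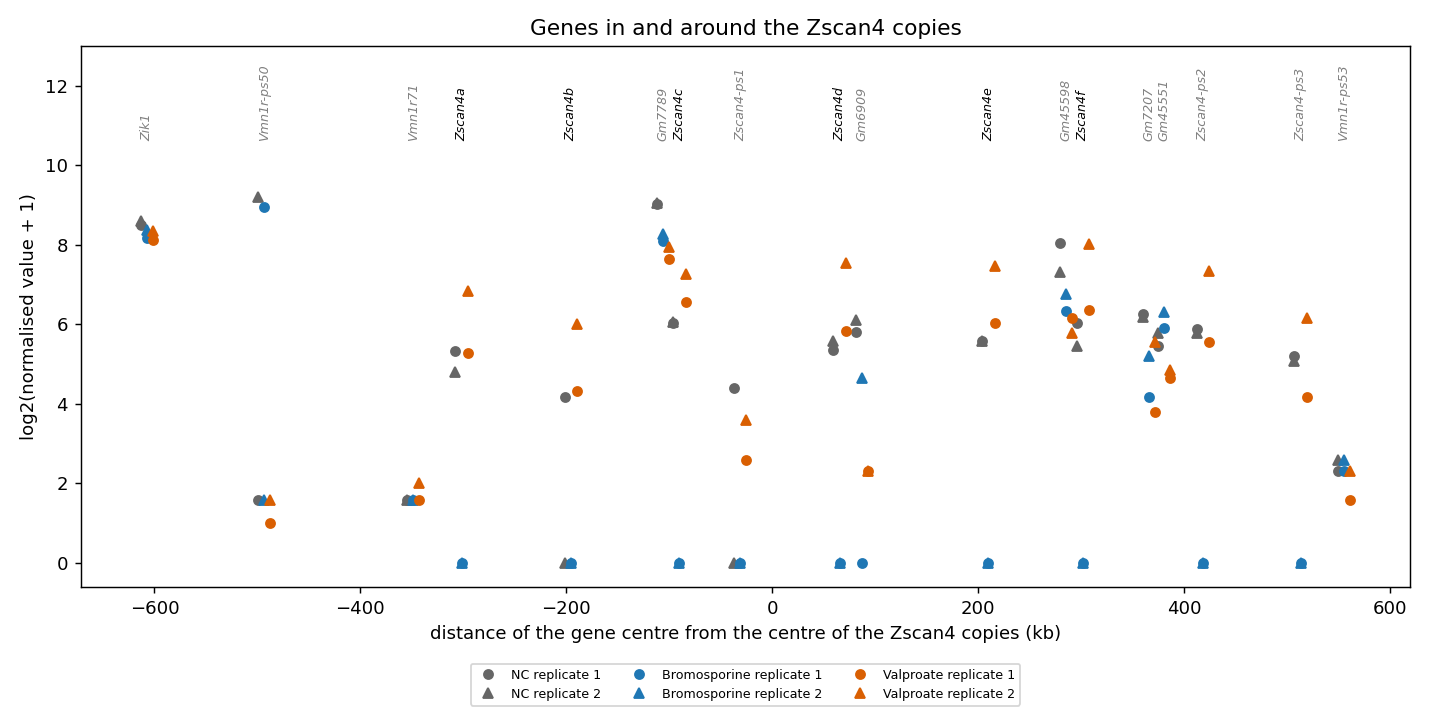
Normalised values, as log2(value + 1), of the genes within 500 kb of the Zscan4 copies against the distance of each gene's centre from the centre of the copies in kb, for both libraries of NC, Bromosporine and Valproate (Zscan4 copies named in black, other loci in grey; groups are set slightly apart). All 6 copies and the 3 further Zscan4 loci are at 0 in both Bromosporine libraries, while Zik1 and Gm7789 are above 0 in all libraries shown.

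Other genes of the 2-cell stage were taken from a list of 48, of which 37 were in the table and 28 were tested. With Bromosporine 6 were called lower and none higher, against 2.77% of all tested genes called lower. With Valproate 5 were called higher and none lower, against 2.73% of all called higher. With DZNep 3 were called higher and none lower, against 5.27% of all called higher. With the other 7 compounds none was called. Gm8994 and B020004J07Rik, among the 5 with Valproate, reached 10 in no other group and so were tested only through the libraries in which they were high, which leaves 3 calls that did not depend on this. Among the 6 with Bromosporine, Gm8994 and Tmem92 reached 10 only with Valproate and were likewise tested only through the Valproate libraries. The median log2 difference from NC was -2.63 with Bromosporine, where 16 of the 28 genes were at 0 in both libraries, and 1.43 with Valproate, against 0.01 and -0.02 over all tested genes. With DZNep it was 0.18, against -0.04 over all.

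Among these genes, Gm8994, tested only through its Valproate libraries, was called with both Bromosporine and Valproate. It had 9 and 9 in NC, 0 and 0 with Bromosporine (adjusted p = 0.0291, limma) and 62 and 116 with Valproate (adjusted p = 0.0247). Gm4027, Gm8300, Gm13119, Tmem92 and Sp110, a nuclear body protein gene, were the others called lower with Bromosporine. Gm8300 had 64 and 29 in NC and 0 in both Bromosporine libraries, and Gm13119 19 and 20 against 0 in both. With Valproate, the deubiquitinase gene Usp26 had 274 and 196 against 39 and 46 in NC (log2 difference 2.42 ± 0.53, SE, adjusted p = 0.0104), while with Bromosporine it had 64 and 82. BB287469, an Eif1a-like gene, had 0 and 0 in NC, 13 and 12 with Valproate (adjusted p = 0.0248, limma) and 34 and 22 with DZNep (adjusted p = 0.00288). The zinc finger gene Zfp750 was called with both as well, at 295 and 385 with Valproate and 815 and 609 with DZNep against 118 and 152 in NC. B020004J07Rik, at 0 in NC, had 11 and 17 with Valproate. Sp110 rose with DZNep to 110 and 89 from 25 and 24 (log2 difference 1.97 ± 0.67, SE, adjusted p = 0.0466, limma). The 6 calls with Bromosporine became 1 and 3 without Bromosporine replicate 1 or 2 and 0 and 1 without NC replicate 1 or 2. The 5 with Valproate became 1 without either Valproate library and 0 and 2 without NC replicate 1 or 2.

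**Figure D5:**
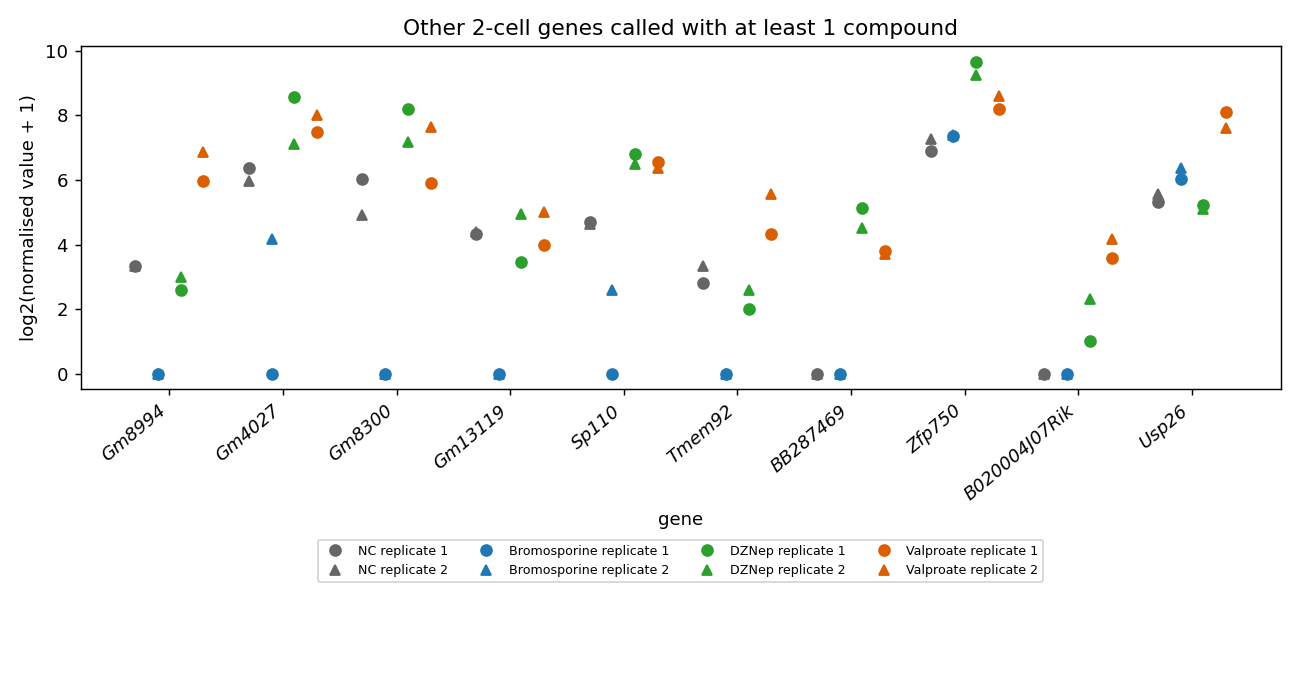
Normalised values, as log2(value + 1), of the 10 other 2-cell genes called with at least 1 compound, in both libraries of NC, Bromosporine, DZNep and Valproate (circles, replicate 1; triangles, replicate 2). Gm8994, Gm4027, Gm8300, Gm13119, Sp110 and Tmem92 are at 0 in at least 1 Bromosporine library, and Gm8994 is highest with Valproate, at 62 and 116.

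Of the other genes of these families, Usp17le, a further Usp17l gene, had 42 and 16 in NC, 0 in both Bromosporine libraries and 101 and 151 with Valproate, and Usp17ld did not exceed 8 in any library. Duxf3, the gene in the table that encodes DUX, also had at most 8, reached in Valproate replicate 2, so that no comparison of it could be made at this level. Tcstv1, a further 2-cell gene, had 20 and 3 in NC, 5 and 0 with Bromosporine and 18 and 49 with Valproate.

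Known regulators of the 2-cell-like state formed a list of 28 genes, all tested. With 9 compounds none was called, Bromosporine and Valproate included, and with DZNep 2 of 28 were called higher, against 5.27% of all tested genes. These were the transcription factor genes Gata3, with 44 and 54 against 0 and 9 in NC, and Tbx3, with 11776 and 10616 against 5662 and 4970 (adjusted p = 0.0147 and 0.000231, limma). The median log2 difference of the list was 0.13 with Bromosporine and 0.03 with Valproate, against 0.01 and -0.02 over all tested genes. Dppa2, which encodes an activator of Dux, was 628 and 1808 with Bromosporine, 823 and 2007 with Valproate and 1827 and 2604 in NC, and it was higher in replicate 2 in every group. Rif1, which encodes a repressor of 2-cell genes and a telomere protein, was lower in replicate 2 than in replicate 1 in every group, with 3816 and 1761 in NC and 12129 and 1575 with Valproate. Their part in the gap between replicate numbers in the Zscan4 sums was not tested.

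Because of the known tie of ZSCAN4 to telomeres, 18 telomere maintenance genes were also read, all tested. None was called with Bromosporine, Valproate or OICR, and the only compound with calls was DZNep, with Tert, the catalytic subunit of telomerase, at 1778 and 856 against 440 and 454, and Nop10, a telomerase RNA-binding subunit, at 4302 and 4378 against 1890 and 2479. These 2 of 18 were called higher (adjusted p = 0.00571 and 0.000855, limma), against 5.27% of all tested genes. The shelterin gene Terf2 had 1575 and 1744 with Bromosporine, 1492 and 1448 with Valproate and 1585 and 1733 in NC.

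Markers of other cell types were read beside these results. With Valproate, the summed level of 8 fibroblast markers was 1554 and 1422 against 528 and 1369 in NC. Thy1 (358 and 303 against 12 and 11) and Lum (197 and 331 against 0 and 0) were called higher, and Dcn and S100a4 were at 0. Lum reached 10 in only 1 library outside Valproate, CPTH2 replicate 1 with 346. It was thus tested only through the Valproate libraries, in which it was high. The sum of 5 primitive endoderm markers was 417 and 554 against 454 and 364, and that of 6 trophoblast markers 5462 and 5939 against 3712 and 3300. With Bromosporine these 3 sums were 682 and 613, 374 and 242, and 5591 and 4382, and Lum, Dcn, Postn and S100a4 were at 0. Among these markers, limma also called Pdgfra higher with Valproate, and Eomes higher and Hand1 and Col1a1 lower with Bromosporine. With DZNep the 3 sums were 1614 and 1878, 467 and 739, and 4024 and 3330, with Col1a1 (327 and 228 against 24 and 24), Thy1 (66 and 64), Pdgfra, Dab2, Eomes and Krt8 called higher and Gata4 lower. Of the 12 pluripotency markers, Utf1 was called higher with Bromosporine, DZNep, OICR and Valproate, and Zfp42 with DZNep. The part of other cell types in the values of the 2-cell genes was not tested.

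The tested genes whose pattern was most like that of the Zscan4 sum were sought by correlation of log2(value + 1) over the 22 libraries, after the mean of each replicate number had been taken off. In order, they were Xlr3c (r = 0.946), Gm4340 (0.926), Antxr1, Fsd2, Nlrp4f, Cyp3a13, 2010300C02Rik, Gm21293, Ctsh and Sohlh2 (0.878). Xlr3c, an X-linked gene of the Xlr family, had 1937 and 2227 in NC, 305 and 383 with Bromosporine and 2002 and 1918 with Valproate, so that it was lowest with Bromosporine and near NC with Valproate. Gm21293 had 79 and 80 in NC, 0 in both Bromosporine libraries and 130 and 364 with Valproate. For the sum of the other 4 genes they were Lama3 (r = 0.885), B020031M17Rik, Gm4027, Gm4340, Prss42, Prkcb, Ppp2r2c, Usp17le (0.859), Shank2 and Hal. Gm4340, with 88 and 46 in NC, 0 and 4 with Bromosporine and 119 and 353 with Valproate, was in both lists. These correlations are a description of 22 libraries, of which 2 at 0 weigh heavily.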

How the data were processed

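RNA was measured in 22 libraries of E14 cells, grouped by titles and treatment labels. The deposited values are scores, here read counts per gene that the authors normalized and rounded to whole numbers. Per the labels, Bowtie2 2.2.5, RSEM and the mm10 build were used. The methods of the study, which name no compound, were taken to cover these libraries, with EDASeq full-quantile normalization, which hides differences in depth and total RNA. DESeq2, the authors' test, takes raw counts and was therefore not run. A deposited table of the authors' group means was not used, and 0 columns were unmatched.

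Genes that reached 10 in 2 or more libraries were tested with limma 3.58.1 in R 4.3.3 on log2(value + 1). All libraries entered 1 model of 11 group means (11 residual degrees of freedom) with trended eBayes moderation, from which the contrasts of a compound with NC were taken. Two-sided p-values were adjusted over the genes of a contrast (Benjamini-Hochberg), and calls needed an adjusted p below 0.05 and a fold change above 2. Sums over genes carry no test.

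The 10 genes and the gene lists were chosen with earlier results of these data known. Named genes were the 10, list genes called with any compound or with the largest values, genes within 500 kb of the Zscan4 copies and the 10 genes most correlated with each sum. Duxf3, Dppa2, Rif1, Terf2, Tcstv1, Usp17ld, Usp17le and the neighbours described were named after their values were seen. Positions and transcripts came from GENCODE M21 and promoters from RefSeq (GRCm38.p6), searched with Python 3.11.15 and Biopython 1.88. Alternatives were another pseudocount, no filter, a fit of the compound and NC only, a replicate block, median-ratio rescaling, another reference, adjustment over all compounds, other forms of the sums and leaving out each library.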

Additional observations from a re-analysis of the deposited data

How the results depend on the processing

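The 5 calls lower among the 100 pairs of gene and compound became 3 with a pseudocount of 10 and 3 with adjustment over all 10 comparisons, 10 in a fit of the compound and NC libraries only, and 8 with the mean of the other groups as reference, where the cause was not tested. Without a filter there were 5 and with median-ratio rescaling 6. With the replicate number as a block there were 9, the 4 further ones being Zscan4a, Zscan4e and Zscan4f with Bromosporine (adjusted p = 0.0145, 0.0212 and 0.0183, limma) and Zscan4f with OICR (0.047). Over 55 pairs of groups the deviations of same-numbered libraries correlated by 0.0535 to 0.298 (median 0.196), with 51 over 0.1. The libraries share a tendency by number, but not every pair was over 0.1 and the labels tie the numbers to nothing, so the block is an alternative here. Leaving out each library in turn gave 1 to 7 calls lower and 0 to 0 higher. The lowest count followed from leaving out an NC library, and in these fits the lone library is assumed to vary like the other groups. The 0 calls higher became 1 with a pseudocount of 10, Usp17lc with Valproate, and 4 with the mean of the other groups as reference, Zscan4b, Zscan4d, Usp17lb and Usp17lc with Valproate. Zscan4d with Bromosporine stayed called in 29 of 29 settings (adjusted p 0.00014 to 0.0449, limma), Zscan4c in 25, Usp17la and Usp17lb in 21 each, and Zscan4d with OICR in 24. The calls of the 2-cell list ranged from 0 to 10 lower with Bromosporine and from 0 to 11 higher with Valproate. No sum changed the sign of its difference from NC. The difference with Valproate ranged from 0.5 to 1.91 (log2) for Zscan4 and from 1.04 to 2.09 for the other 4 genes, and with MS023 the Zscan4 difference came down to -0.05. The depth behind each value is unknown, and 2 libraries per group allow no exact test below p = 0.333.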
